A study of Mus musculus with 2 samples.

Results

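The 38 genes described here, from Mki67 to Tacc3, act in mitosis: they build the spindle, attach chromosomes to it, time the separation of the sister chromatids and split the cell. They were chosen by name as a set of mitotic spindle and division genes, and all 38 were found among the 20198 genes of the count table. Corneal cells of male mice were caught in droplets and sequenced as 2 libraries. The UW library pooled the corneas of 4 unwounded mice, and the W library those of 4 mice whose central corneal epithelium had been scraped off 24 h earlier. The table held 16450 UW and 12417 W cells, each carrying the number of the cluster to which the authors had assigned it. Neither group is described as carrying a genetic change. The wounded mice were anaesthetised with pentobarbital, with procaine on the eye, and their wounds were given the antibiotic ofloxacin, so these agents and the wound cannot be told apart. A pool of mice gives 1 library per condition, so differences between the libraries were not tested and the intervals below cover counting error only. Cells of 1 library are not replicates.

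A dividing cell condenses its chromosomes, loads the kinetochores that grip the spindle fibres, and then waits at the spindle checkpoint until each chromosome is attached. Cyclin-dependent kinase 1 with its A and B cyclins drives entry into mitosis, the Aurora and Polo-like kinases shape the spindle, and the anaphase-promoting complex then marks cyclin B for destruction so that the chromatids part and the cell is cut in 2. Transcripts of these genes are made in late S phase, G2 and M and are scarce in resting cells, which is why they are read as a sign of cycling. In the corneal epithelium division takes place mainly in the basal layer and at the limbus, and the cells above them differentiate and are shed.

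Many G2/M genes carry 2 short elements near their start: the cell cycle genes homology region (CHR), at which the DREAM and MuvB complexes bind, and CCAAT boxes, bound by the NF-Y factor. Promoters were taken from RefSeq (GRCm38.p6), from 250 bases before to 50 bases after the start, and 33 of the 38 members were matched. Ccna2, Aurkb, Tpx2, Dlgap5 and Smc4 were not. Both strands were searched for TTTGAA or TTCGAA as the CHR, for CCAAT, and for the E2F sites TTTGGCGC, TTTCCCGC, TTTCGCGC and TTTGCCGC, and matches of different motifs were allowed to overlap. A CHR was found in 26 of 33 members (78.8%), in 19.4% of all 27025 promoters of the table and in 16.1% of 31 promoters of S phase genes. A CCAAT box was found in 75.8% of the members, 37.9% of all promoters and 71.0% of the S phase genes. The 2 elements occurred together in 66.7% of the members, 7.70% of all promoters and 12.9% of the S phase genes, and an E2F site in 3.03%, 2.32% and 35.5%. In a window chosen after the positions had been seen, from 60 bases before the start to the end of the promoter, 69.7% of the members and 5.87% of all promoters held a CHR. The promoters below belong to the 6 members with both elements and the most UMIs in cluster 8, the cluster in which most of the members' transcripts were found. Each runs from 200 bases before the start to 30 bases from it, 5′ to 3′ on the gene's strand, and the capitals mark CHR and CCAAT matches on either strand.
Ube2c (chr2:164769729-164769958, plus strand): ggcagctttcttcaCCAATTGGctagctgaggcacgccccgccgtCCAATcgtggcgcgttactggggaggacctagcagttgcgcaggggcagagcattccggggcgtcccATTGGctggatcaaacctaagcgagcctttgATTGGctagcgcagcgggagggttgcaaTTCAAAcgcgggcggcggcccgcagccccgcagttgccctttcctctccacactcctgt
Top2a (chr11:99024160-99024389, minus strand): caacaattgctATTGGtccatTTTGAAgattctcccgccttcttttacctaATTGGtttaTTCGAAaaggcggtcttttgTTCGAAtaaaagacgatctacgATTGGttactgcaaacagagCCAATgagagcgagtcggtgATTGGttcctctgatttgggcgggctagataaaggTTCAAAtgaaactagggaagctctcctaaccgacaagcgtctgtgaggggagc
Mki67 (chr7:135716350-135716579, minus strand): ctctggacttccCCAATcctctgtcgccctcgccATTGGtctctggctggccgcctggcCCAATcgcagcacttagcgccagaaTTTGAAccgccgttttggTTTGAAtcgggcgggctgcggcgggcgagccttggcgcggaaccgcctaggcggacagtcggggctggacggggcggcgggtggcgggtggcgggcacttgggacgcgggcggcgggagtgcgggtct
Cdca8 (chr4:124936888-124937117, minus strand): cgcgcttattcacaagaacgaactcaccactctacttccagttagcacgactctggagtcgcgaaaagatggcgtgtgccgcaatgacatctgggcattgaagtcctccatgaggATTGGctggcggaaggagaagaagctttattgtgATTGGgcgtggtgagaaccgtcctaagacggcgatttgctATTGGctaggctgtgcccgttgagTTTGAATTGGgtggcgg
Cdc20 (chr4:118437314-118437543, minus strand): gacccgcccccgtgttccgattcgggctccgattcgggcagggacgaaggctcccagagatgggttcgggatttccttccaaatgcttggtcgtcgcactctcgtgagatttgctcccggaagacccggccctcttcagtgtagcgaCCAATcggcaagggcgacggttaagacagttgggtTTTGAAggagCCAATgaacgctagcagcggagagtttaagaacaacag
Prc1 (chr7:80294251-80294480, plus strand): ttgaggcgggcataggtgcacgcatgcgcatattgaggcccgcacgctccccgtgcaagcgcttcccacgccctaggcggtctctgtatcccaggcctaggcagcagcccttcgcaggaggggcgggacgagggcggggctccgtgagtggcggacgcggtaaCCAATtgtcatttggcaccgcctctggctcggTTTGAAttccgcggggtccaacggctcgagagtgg
Ube2c, which helps the anaphase-promoting complex attach ubiquitin, had 1 CHR and Top2a, the topoisomerase that untangles sister chromatids, had 4. In Cdca8, a subunit of the chromosomal passenger complex, the CHR and a CCAAT box on the other strand shared letters just past the start. A match is a description of the letters, and binding was not measured.

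The libraries held 367166822 UMIs in UW and 289586482 in W, with single cells between 739 and 128641, and levels are given as UMI counts per 1000000 (CPM) of the cells summed, with exact Poisson 95% intervals. Median depth differed between the libraries within clusters, being 24704 UMIs per cell in UW and 35499 in W in cluster 8, so the mean number of UMIs per cell is given beside the CPM of the members summed. There were 52 barcodes found in both libraries, and leaving them out moved no summed level beyond its counting interval. Transcripts free in the suspension can reach any droplet. The 7 neutrophil markers summed to 10.2 CPM in UW and 646 CPM in W in cluster 8, with Cxcr2 and Retnlg at 0 in UW. The list was uneven. In cluster 8 5 of its genes had at least 20 UMIs over both libraries, with a median log2 ratio of 2.39, where the sum gave 5.99. In cluster 11 3 of its genes had that many. Over the epithelial clusters together the list summed to 706 CPM in W. Whether these sums, here and in the clusters below, came from neutrophils was not tested. A floor for the members was read in the neutrophils themselves (cluster 13, W, 710 cells), which do not divide, and in the terminal superficial cluster 7, led by the cornified envelope genes Lce3b, Lce3a and Lce3f. Neutrophil droplets held 1.55 member UMIs each, but at a median of only 2510 UMIs, so that their level by CPM was 599. Cluster 7 held 0.725 member UMIs per cell in UW and 2.53 in W, or 30.2 and 112 CPM. The 2 floors thus differed by scale, and by CPM the neutrophil level in W lay above that of clusters 1, 3 and 5, described later. With each cell thinned to 2000 UMIs, a W cell had on average 1.09 members in cluster 13 and 0.241 in cluster 7, against 1.66 in cluster 9, 1.39 in cluster 11, 0.777 in cluster 3, 0.71 in cluster 1 and 0.618 in cluster 5. At least 5 members were then seen in 0.342% of 584 neutrophil droplets, and in 10.9%, 1.61%, 1.02%, 1.70% and 1.26% of the cells of those 5 clusters. How much of the members' level in W is free RNA was not tested, and levels near the floors are not read as division.

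Over all cells the members summed to 292 CPM (290 to 294) in UW and 979 CPM (976 to 983) in W, a log2 ratio of W over UW of 1.75 (1.74 to 1.76). Per cell this was 6.52 UMIs in UW and 22.8 in W. Other markers moved with this contrast, the dissociation and stress genes from 13422 CPM in UW to 8950 CPM in W, the immune markers from 2.40 to 350.3 CPM and the neutrophil markers from 29.4 to 855 CPM, and their part was not tested. A gene was called when its log2 ratio of CPM reached 1 either way with at least 20 UMIs over both libraries, and 35 of 38 members were called higher in W and 0 lower, where 20.1% of 17776 genes were called higher and 7.92% lower. The median log2 ratio was 1.87 over the members and 0.21 over all genes. By role, the chromosomal passenger complex summed to 24.7 CPM in UW and 143 CPM in W, the cyclins and Cdk1 to 21.5 and 122 CPM, and the midzone and cytokinesis genes to 46.4 and 84.6 CPM. The log2 ratios of these roles were 2.53, 2.50 and 0.87. The 3 members that were not called were Kif23, Smc4 and Cenpf. Kif23, a motor of the central spindle, stood at 18.9 CPM in UW and 19.4 CPM in W, Smc4, a condensin subunit, stood at 29.5 and 46.4 CPM, and Cenpf, a kinetochore protein, at 15.6 and 27.3 CPM.

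To count cells rather than transcripts, each cell was thinned to 5000 UMIs and the members with at least 1 UMI were counted. Of 16000 UW cells deep enough, 453 had at least 5 members (2.83%, exact Clopper-Pearson 95% interval 2.58 to 3.1), and of 11264 W cells 1901 did (16.9%, 16.2 to 17.6). The class is a range of a score and not a cell type: 85 UW and 401 W cells held 4 members, and 55 and 258 held exactly 5. Among the UW cells of the class 92.3% lay in cluster 8, and among the W cells 66.9%. Of the class outside cluster 8, 35 cells in UW and 629 in W, most lay in 5 clusters, with 255 W cells in cluster 9, 127 in cluster 11, 101 in cluster 3, 65 in cluster 5 and 44 in cluster 1, against 22, 8, 2, 0 and 1 in UW. Of the others in W 11 lay in cluster 14, 9 in cluster 16 and 6 in cluster 4. At this limit the class was spread over more clusters in W. Exactly 5 members were held by 56 W cells in cluster 9, 59 in cluster 11, 44 in cluster 3, 20 in cluster 5 and 17 in cluster 1. Most W cells of the class outside cluster 8 held fewer than 10 members. At least 10 members were seen in 288 UW and 959 W cells, of which cluster 8 held 281 and 864, cluster 9 held 7 and 81, and clusters 11, 3, 5 and 1 held 1, 3, 2 and 1 in W and 0 in UW. The clusters had been made by the authors from the cells' own expression, so a cluster's size and its members' level were not set independently of each other.

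**Figure D1:**
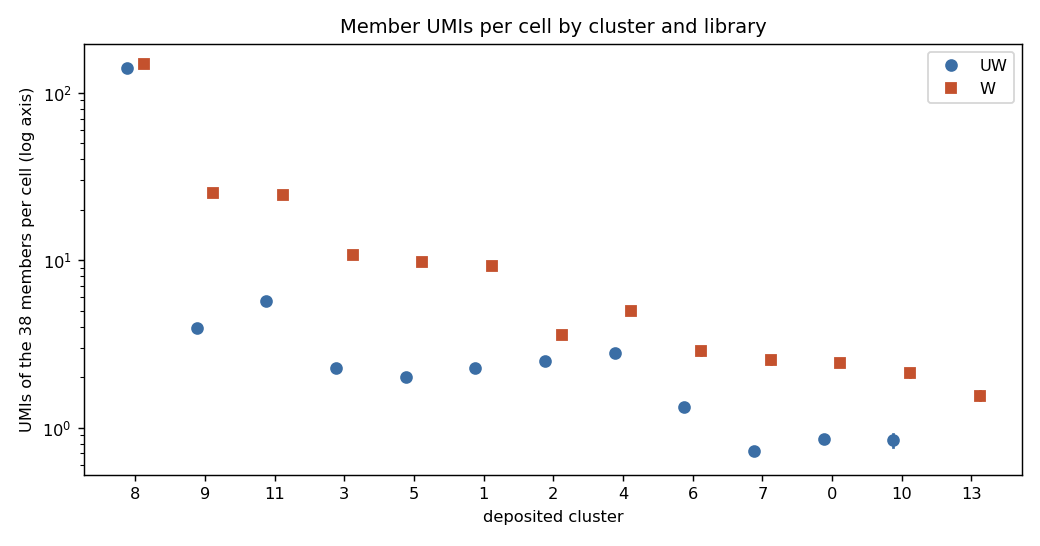
Mean UMIs of the 38 members per cell (log axis) in each deposited cluster, UW as circles and W as squares, with vertical lines for the exact Poisson 95% interval where it is wider than the symbol. Cluster 8 stood at 140 and 149, cluster 9 at 3.93 and 25.4, and neutrophil cluster 13, shown for W, at 1.55 from much shallower droplets.

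Cluster 8 was led by Nusap1, Kif11, Knl1, Esco2, Aurkb, Top2a, Plk1, Pbk, Hmmr and Kif15, 6 of which are members, so its high level against the other clusters is how it was made. All 8 epithelial markers, among them Krt12, were detected in it, at a summed 36076 CPM in UW and 32732 CPM in W. It held 535 UW cells (3.25% of cells) and 1332 W cells (10.7%), and carried 70.1% of all member UMIs in UW (69.8 to 70.4) and 70.0% in W (69.8 to 70.1). Here the direction depended on the scale. The members summed to 5872 CPM in UW (5830 to 5914) and 4073 CPM in W (4055 to 4091), a log2 ratio of −0.53 (−0.54 to −0.52), while their UMIs per cell were 140 in UW and 149 in W. By CPM 8 members were higher in W and 30 lower, and by UMIs per cell 21 were higher and 17 lower. The 13 members lower by CPM but higher per cell were Cdk1, Ccna2, Ccnb2, Cdca3, Ube2c, Birc5, Ndc80, Ttk, Kif2c, Tpx2, Hmmr, Tacc3 and Ckap2l. The levels of single members in this cluster are given below as CPM. None was called higher in W, where 10.9% of 13086 genes were, and 3 were called lower, where 9.58% of genes were. That is 7.89% of the members, near the share of all genes. Markers of dissociation and stress moved with this contrast, the 12 genes of that list summing to 13656 CPM in UW and 8178 CPM in W in cluster 8, and so did the 8 stromal markers, at 809 and 379 CPM. Their part in the result was not tested.

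**Figure D2:**
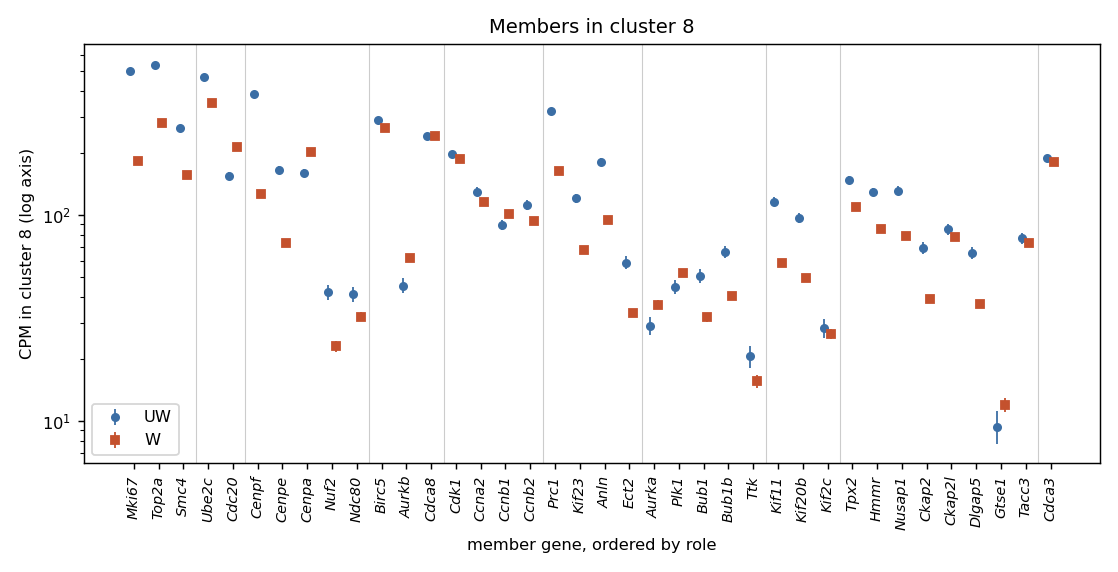
CPM of each member in cluster 8 (log axis), ordered by role and separated by grey lines, UW as circles and W as squares with exact Poisson 95% intervals. Mki67, Cenpf and Cenpe were lower in W by more than 1 on the log2 scale, and Cdc20, Aurkb and Cenpa were higher in W. With the median of the length class taken off, a step described below, the ratios of Cdc20, Aurkb and Cenpa were 0.18, 0.16 and 0.04.

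The 3 members called lower in W were long genes. Cenpf stood at 387 CPM in UW and 126 CPM in W, with a log2 ratio of −1.62 (−1.67 to −1.57). Mki67, the antigen that coats mitotic chromosomes and serves as the common marker of cycling cells, stood at 504 CPM in UW and 183 CPM in W, a ratio of −1.47 (−1.51 to −1.42). Cenpe, the kinetochore motor that moves chromosomes to the spindle equator, stood at 166 and 73.1 CPM, a ratio of −1.19 (−1.26 to −1.11). Per cell these genes were also lower in W, Mki67 at 12.1 UMIs in UW and 6.67 in W. Across the 38 members the log2 ratio in cluster 8 followed the length of the longest annotated transcript (GENCODE M21), with a Pearson r of −0.80 and a Spearman rho of −0.76 across genes, which are not independent and share both libraries. All 10752 genes with at least 20 UMIs in each library showed the same sense, with r of −0.36 and rho of −0.41. The relation was not particular to cluster 8. Over all genes r was −0.40 in cluster 9, −0.34 in cluster 11, −0.33 in cluster 5, −0.27 in cluster 1, −0.26 in cluster 3 and −0.20 over all cells, and over the members with at least 20 UMIs it lay between −0.39 and −0.72 in these groups.

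**Figure D3:**
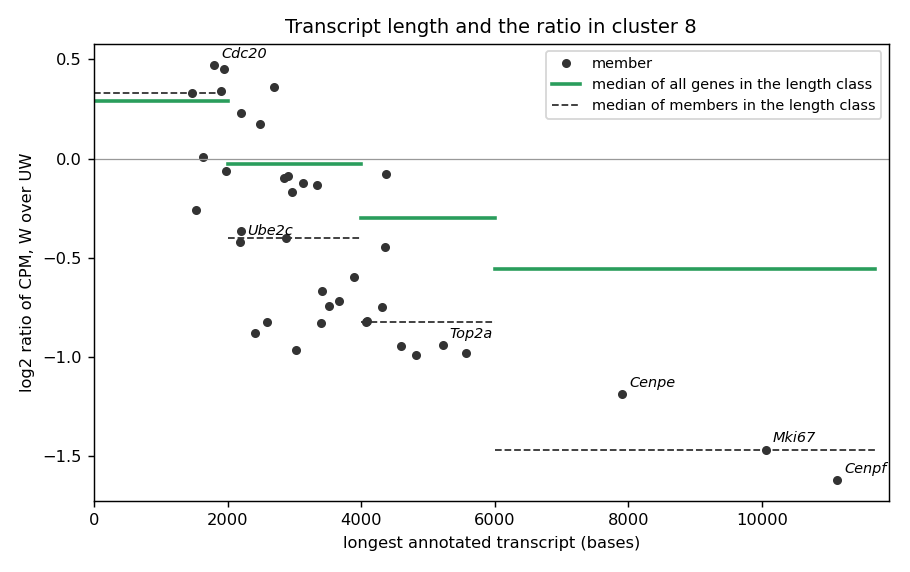
Log2 ratio of CPM in cluster 8, W over UW, of each member against its longest annotated transcript in bases, with the medians of all genes (green) and of the members (dashed) in 4 length classes. Under 2000 bases the medians were 0.29 for all genes and 0.33 for the members, and above 6000 bases −0.56 and −1.47.

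In the length class under 2000 bases the median ratio was 0.29 over all genes and 0.33 over 7 members. It was −0.03 over all genes and −0.40 over 19 members from 2000 to 4000 bases, −0.30 and −0.83 over 9 members from 4000 to 6000, and −0.56 and −1.47 over 3 members above that. After the median of the length class was taken from each ratio, a step added once the relation had been seen, Cenpf alone of the 38 was past 1, at −1.06, with Prc1 at −0.94 and Mki67 at −0.91. Of the 8 members higher in W by CPM, Cdc20 then stood at 0.18, Aurkb at 0.16, Aurka at 0.05 and Cenpa at 0.04. Gtse1 stood at 0.39, Plk1 at 0.26, Ccnb1 at 0.20 and Cdca8 at −0.28. The median over the members was then −0.42, against −0.43 before. The differences between the members of cluster 8 described next are therefore given with this relation in view, and what produced it was not tested.

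The cyclins and their kinase were nearly level in cluster 8 by CPM, at a summed 529 CPM in UW and 498 CPM in W. Cdk1, the kinase itself, stood at 198 and 187 CPM, Ccna2, which acts from S phase into prophase, at 130 and 116 CPM, Ccnb2 at 112 and 93.6 CPM, and Ccnb1, the main mitotic cyclin, at 89.8 and 101 CPM. Cdca3, which helps degrade the Wee1 kinase at entry, stood at 189 CPM in UW and 181 CPM in W. No gene of this set differed by more than 0.26 on the log2 scale of CPM. Per cell each was higher in W, Cdk1 at 4.73 UMIs in UW and 6.84 in W, Ccna2 at 3.11 and 4.23, Ccnb2 at 2.68 and 3.42, Ccnb1 at 2.15 and 3.71 and Cdca3 at 4.53 and 6.63.

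The regulators of anaphase parted from each other. Cdc20, which activates the anaphase-promoting complex once the checkpoint is satisfied, stood at 154 CPM (148 to 161) in UW and 214 CPM (210 to 218) in W, a log2 ratio of 0.47. Ube2c stood at 471 and 352 CPM, a ratio of −0.42, although its UMIs per cell were 11.3 in UW and 12.9 in W. Cdc20 lies across Elovl1 and Ube2c across Tnnc2 on the other strand, 2 of the 14 members with such an overlap, and whether the counting used strand is not stated.

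The centromere and kinetochore genes differed in both directions by CPM. Cenpa, the histone variant that marks the centromere, stood at 161 CPM in UW and 202 CPM in W, a ratio of 0.33. With the median of the length class taken off, its ratio was 0.04. Ndc80 and Nuf2, which form the microtubule-binding arm of the kinetochore, stood at 41.3 and 32.1 CPM and at 42.2 and 23.0 CPM. Per cell Ndc80 was slightly higher in W, at 0.987 and 1.17 UMIs. With Cenpf and Cenpe the set summed to 798 CPM in UW and 456 CPM in W. Of the chromosomal passenger complex, which corrects faulty attachments and then guides cytokinesis, Aurkb, its kinase, stood at 45.3 CPM in UW and 62.0 CPM in W (0.45), Birc5 (survivin) at 291 and 265 CPM, and Cdca8 (borealin) at 241 and 242 CPM.

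Among the mitotic kinases, Aurka, which ripens the centrosomes, stood at 29.0 CPM in UW and 36.7 CPM in W, and Plk1, the Polo-like kinase, at 44.8 and 52.6 CPM. By CPM the checkpoint kinases were lower in W: Bub1 at 50.7 and 31.9 CPM, Bub1b at 66.4 and 40.4 CPM, and Ttk at 20.6 and 15.6 CPM. Per cell they were closer, Ttk being higher in W at 0.492 and 0.57 UMIs. The spindle motors Kif11, which pushes the poles apart, and Kif20b were lower in W, at 116 and 58.4 CPM and at 97.2 and 49.3 CPM, with ratios of −0.99 and −0.98. Kif2c, which takes microtubules apart at the centromere, stood at 28.1 and 26.3 CPM.

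The midzone and cytokinesis genes were lower in W as a set, at 680 CPM in UW and 359 CPM in W. Prc1, which bundles the microtubules between the parting chromatids, stood at 319 and 164 CPM (−0.97), Anln, which anchors the contractile ring, at 181 and 94.3 CPM (−0.94), Kif23 at 121 and 67.9 CPM (−0.83), and Ect2, the exchange factor that switches on RhoA at the cleavage site, at 58.8 and 33.4 CPM (−0.82). The 8 spindle assembly and microtubule-binding genes summed to 716 CPM in UW and 512 CPM in W. Ckap2, a spindle protein, stood at 69.2 and 39.0 CPM. Tpx2, which activates Aurora A, stood at 148 and 109 CPM (3.55 and 3.98 UMIs per cell) and Nusap1 at 132 and 78.7 CPM, while Tacc3 was at 77.3 and 72.8 CPM and Gtse1 at 9.30 and 11.9 CPM.

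Cells of cluster 8 also differed in how many members each expressed. After thinning, 82.0% of 510 UW cells (78.3 to 85.2) and 96.9% of 1313 W cells (95.8 to 97.8) had at least 5 members, whereas at least 15 were seen in 45.1% of UW (40.7 to 49.5) and 31.9% of W cells (29.4 to 34.5), and at least 20 in 27.6% and 9.82%. The median was 12 members in both. The UW cells of the cluster thus made up larger shares at both ends and the W cells in between. A UMI of Mki67 was seen in 71.6% of the thinned UW cells and 48.7% of the W cells, and one of Cenpa in 43.1% and 55.1%, at one depth for all. In cluster 7 the shares for Mki67 were 0.402% and 1.17%. Across the thinned cells of cluster 8, members were more correlated with each other in UW than in W, the median Pearson r over 703 pairs of members being 0.24 in 510 cells and 0.08 in 1313 cells. The pair with the highest r was Top2a with Prc1 in UW (0.67) and Cenpa with Cdc20 in W (0.40). Counts this sparse limit r, and the cells share 1 library.

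**Figure D4:**
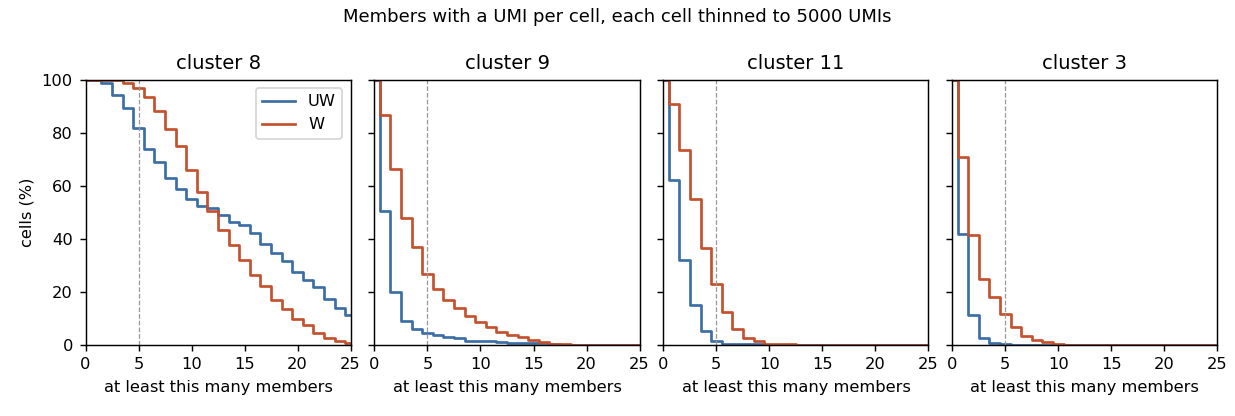
Percent of cells with at least the number of members on the horizontal axis, each cell thinned to 5000 UMIs, in clusters 8, 9, 11 and 3, for UW (blue) and W (orange), with a dashed line at 5 members. In cluster 8 the curves cross near 12 members, and in the other 3 clusters W lies above UW.

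In each of the other clusters from 0 to 11 the members summed were higher in W. Cluster 9, led by Wfdc18, Dlk2, Sox4 and Wnt10a and with all 8 epithelial markers detected, held 521 UW and 956 W cells. Its members summed to 269 CPM (257 to 280) in UW and 974 CPM (962 to 987) in W, and to 3.93 and 25.4 UMIs per cell. In neutrophil droplets of W the levels were 599 CPM and 1.55 UMIs. Of its 38 members 31 were called higher in W, against 9.12% of genes, and 0 lower, against 9.76%. At least 5 members were seen in 4.36% of UW cells (2.75 to 6.52) and 26.8% of W cells (24.0 to 29.8). Cenpa stood at 13.7 CPM in UW and 93.9 CPM in W, Cdca3 at 6.96 and 79.9 CPM, Cdc20 at 9.72 and 72.9 CPM and Ube2c at 10.1 and 62.1 CPM. Mki67, at 19.2 and 40.9 CPM, and Top2a, at 12.1 and 27.9 CPM, were higher by a smaller ratio, 1.09 and 1.21. With the median of the length class taken off, 34 members were past 1. Other markers moved with this contrast: the 12 dissociation and stress genes summed to 15866 CPM in UW and 8884 CPM in W, 6 corneal endothelial markers to 82.5 and 26.1 CPM, and the neutrophil markers to 28.6 and 357 CPM. Their part in the result was not tested.

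Cluster 11, led by the replication genes Ung, Hells and Mcm2 to Mcm7, held 612 UW and 562 W cells. Its members summed to 268 CPM in UW and 696 CPM in W, and to 5.69 and 24.7 UMIs per cell at median depths of 21461 and 35514 UMIs. Of 38 members 28 were called higher in W, against 12.7% of genes, and 0 lower, against 9.33%. The mitotic cyclins were among the farthest apart: Ccnb2 stood at 0.538 CPM (0.216 to 1.11) from 7 UMIs in UW and at 35.2 CPM (32.6 to 37.9) from 700 UMIs in W, and Ccnb1 at 0.769 and 10.8 CPM. Cdca3 stood at 1.38 and 48.5 CPM. After thinning, 0 of 600 UW cells had a Ccnb2 UMI, which allows a share of up to 0.5%, and 14.2% of 556 W cells had one. Of the 12 members of an early list (S to G2) 6 were called higher, with a median log2 ratio of 1.07. They ranged widely, from Smc4 at 70.7 CPM in UW and 60.1 CPM in W, Ckap2l at 18.8 and 20.9 CPM and Top2a at 20.8 and 40.7 CPM to Ccna2 at 1.92 and 18.6 CPM, and Cdk1 stood at 16.2 and 50.9 CPM. With the length class median taken off, 29 members were past 1. Dissociation and stress genes summed to 11941 CPM in UW and 6704 CPM in W here and neutrophil markers to 7.62 and 783 CPM, and their part was not tested.

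Cluster 3, whose leading genes included Krt18, Ppbp, Lamb3 and the hemidesmosome integrin Itgb4, held 1789 UW and 885 W cells. Its members summed to 125 CPM in UW (121 to 128) and 421 CPM in W (413 to 430), and to 2.28 and 10.8 UMIs per cell. Of the 37 members with enough UMIs 27 were called higher in W, against 15.1% of genes, and 0 lower, against 11.1%. At least 5 members were seen in 2 of 1708 UW cells (0.117%) and 101 of 865 W cells (11.7%, 9.61 to 14). Cenpa stood at 3.39 and 46.6 CPM, Birc5 at 1.92 and 34.0 CPM, Ccnb2 at 1.10 and 31.8 CPM, and Ccnb1, from 8 UMIs in UW, at 0.244 CPM (0.105 to 0.481) and 9.92 CPM. A Cenpa UMI was seen in 1.52% of UW and 16.8% of W cells after thinning, where cluster 7 gave 0.603% and 3.12%. Prc1 at 13.5 and 10.9 CPM and Smc4 at 29.2 and 20.5 CPM were lower in W. By CPM the summed level in W was below that of the neutrophil droplets. Neutrophil markers summed to 9.82 CPM in UW and 568 CPM in W in this cluster, 8 immune markers to 2.11 and 65.0 CPM and dissociation and stress genes to 12122 and 9578 CPM, and their part was not tested.

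Clusters 5 and 1 followed. In cluster 5, led by Sptssb, Serpinb3a, Krt4, Krt19 and Krt8, the members summed to 81.4 CPM in UW and 322 CPM in W (1.99 and 9.69 UMIs per cell), 31 of 38 were called higher in W (12.7% of genes) and 0 lower (7.47%), and cells with at least 5 members made up 0 of 1066 in UW, which allows a share of up to 0.281%, and 5.54% in W. In cluster 1, led by Pygl, Dapl1 and Epgn, the sums were 99.5 and 378 CPM (2.27 and 9.19 UMIs per cell), 30 of 36 were called higher (14.7% of genes) and 1 lower (11% of genes), and the shares of cells were 0.0422% and 7.83%. Both levels in W were also below the 599 CPM of neutrophil droplets. Neutrophil markers were higher in W in each of these clusters, for instance at 4.51 CPM in UW and 685 CPM in W in cluster 1. Dissociation and stress genes were lower, at 15027 CPM in UW and 10309 CPM in W in cluster 5 and at 10703 and 8233 CPM in cluster 1. The part of both in these results was not tested. Member UMIs per cell in clusters 2, 4, 6 and 7 in W lay between 2.53 and 4.95, against 1.55 in neutrophil droplets, and the 5-member share was at most 0.672% in these clusters in W. Calls were as frequent there: 27 of 37 members were higher in cluster 2 (13.2% of genes), 29 of 37 in cluster 4 (13.8%), 29 of 34 in cluster 6 (17.2%) and 24 of 28 in cluster 7 (23.2%). Lower calls were 0, 1 (Kif23), 0 and 0, against 13.1%, 13.5%, 9.58% and 6.48% of genes. Over the epithelial clusters together, these among them, neutrophil markers summed to 28.5 CPM in UW and 706 CPM in W. Dissociation and stress genes summed to 13570 and 9635 CPM there. Their part in these calls was not tested. The summed log2 ratio in cluster 7, 1.89, was close to the 1.86 of cluster 9 and the 1.76 of cluster 3. The counts of members called higher in W were therefore not particular to clusters 9, 11, 3, 5 and 1. Their 5-member shares in W were above those of clusters 2, 4, 6 and 7. At 10 members cluster 9 stood at 8.53% in W. Clusters 11, 3, 5 and 1 stood at 0.18%, 0.347%, 0.171% and 0.178%, beside 0.224% in cluster 4, each from at most 3 cells. Without thinning, at least 10 members were seen in 68.0%, 19.3%, 15.2% and 14.2% of W cells in clusters 11, 3, 5 and 1. Cluster 4 then gave 5.26%, and clusters 2, 6 and 7 gave 0.788%, 0.613% and 1.14%. Median depth in W differed, at 35514 UMIs in cluster 11, 22368 in cluster 1 and 20584.5 in cluster 4.

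**Figure D5:**
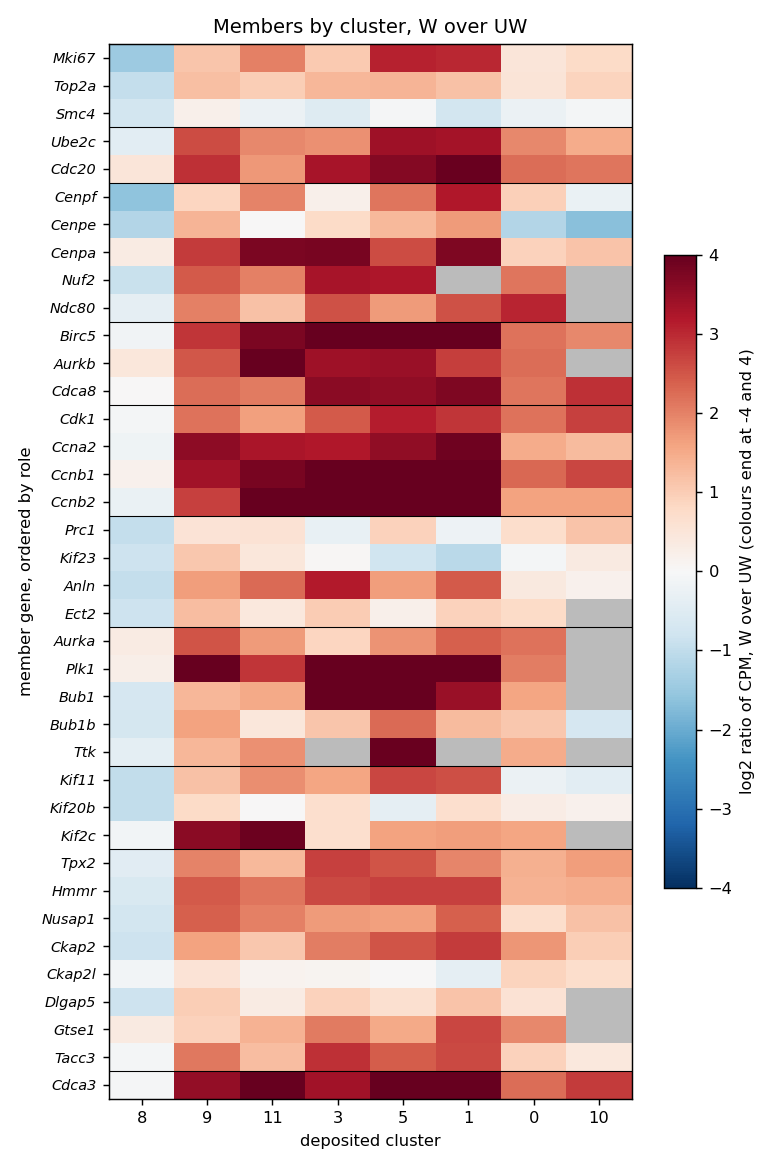
Log2 ratio of CPM, W over UW, for each member (rows, ordered by role) in 8 deposited clusters, red where higher in W, blue where lower, and grey where the gene had under 20 UMIs over both libraries. Cyclins, Cdca3, Birc5 and Plk1 are dark red in clusters 9, 11, 3, 5 and 1, while Smc4, Prc1, Kif23, Kif20b and Ckap2l are pale or blue there.

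Not all members were called. Across clusters 1, 3, 5, 9 and 11, 22 of the 38 were called higher in W in all 5, and Prc1, Kif20b, Ckap2l and Smc4 in none. Among genes with enough UMIs in each of the 5 clusters, this was 22 of 36 members (61.1%) and 386 of 11449 genes (3.37%) called in all 5, and 11.1% of those members and 77.6% of those genes called in none. Among these 5 clusters Kif23 was called higher in W in cluster 9 alone. It was called lower in W in cluster 1, where it stood at 19.1 CPM in UW and 9.11 CPM in W, and also in cluster 4. These genes had been among the least confined to cluster 8 in the unwounded cornea, together with Gtse1, Tacc3 and Dlgap5. Of all Kif23 UMIs 22.2% lay in cluster 8 in UW and 58.7% in W, of Ckap2l 30.0% and 62.4%, and of Smc4 31.3% and 57.1%, where the median over members was 83.1% and 75.7%. For Ccnb2 the shares went the other way, from 83.4% in UW to 49.4% in W, and likewise for Cdca3, at 83.5% and 56.9%.

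The summed difference over all cells was split into a part from the clusters' shares of UMIs and a part from the level within each cluster, an arithmetic split with mean weights. Of the 687 CPM between W and UW, 698 CPM (102%) came from shares and −10.8 CPM from levels. After thinning to 5000 UMIs per cell the share part was 85.3% and the level part turned positive, at 14.7%. Cluster 8 alone accounted for 480 CPM (69.9%), its share part of 663 CPM being reduced by a level part of −183 CPM. The other clusters gave 207 CPM (30.1%), of which 172 CPM came from higher levels within them. The 12 genes of a late list (G2 to M) were set against the 12 of the early list, 24 members in all. In cluster 8 the late genes stood at 1.23 times the early ones in UW and 1.45 times in W, a log2 difference of 0.25 (0.22 to 0.28). In clusters 9, 11, 3 and 5 the log2 difference was 1.38, 1.81, 1.93 and 2.40, the ratio in cluster 3 being 0.705 in UW and 2.70 in W. These values leaned on Smc4, the early gene with the most UMIs in each of the 4 clusters. Without it, an alternative chosen after seeing the data, they were 0.93, 1.37, 1.10 and 1.91, and the ratio in cluster 3 was 1.72 in UW and 3.70 in W. By the median log2 ratio over its genes, the late list stood at 2.68, 2.06, 2.97 and 3.07 and the early list at 1.41, 1.07, 1.45 and 1.98.

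Stromal and immune cells held few member UMIs per cell, though immune cells were shallow and not low by CPM. In stromal cluster 0, whose 8 stromal markers summed to 82998 CPM in UW and 43146 CPM in W, the members stood at 70.8 CPM in UW and 128 CPM in W, 22 of 38 were called higher against 7.34% of genes and 1, Cenpe, lower against 9.67%, and 1 cell of 2318 in UW and 1 of 1708 in W had at least 5 members. In stromal cluster 10 they stood at 83.0 and 161 CPM and 14 of 27 were called higher, against 4.97% of genes, and 1, again Cenpe, lower, against 6.63%. Both clusters held about 2 member UMIs per cell in W, near the floor. Other markers moved with these contrasts: dissociation and stress genes summed to 12391 CPM in UW and 4794 CPM in W in cluster 0, and in cluster 10 the stromal markers to 83295 and 52905 CPM and the corneal endothelial markers to 2221 and 1143 CPM. Their part was not tested. Of the clusters that were nearly absent from UW, cluster 16, led by mast cell proteases and lymphocyte genes (Tpsb2, Mcpt4, Cma1, Cpa3, Ifng, Cd3d), stood at 702 CPM and 3.40 member UMIs per cell in W, at a median depth of 4411 UMIs. There 9 of 72 W cells had at least 5 members (12.5%, 5.88 to 22.4), but 143 of the 215 cells were too shallow to be counted, and at 2000 UMIs the share was 3 of 205 (1.46%). Cluster 14, led by Cd209a, Ccr7 and H2-Aa, stood at 392 CPM in W (1039 CPM in UW, from 8 UMIs in 7 cells), with 11 of 256 W cells in the class (4.30%) and 98 left out. Cluster 15, led by Lyz1, Pf4 and Ccl12, stood at 265 CPM, with 3 of 242 (1.24%). In neutrophil cluster 13, at 599 CPM, 703 of 710 droplets were too shallow and 2 of the other 7 were in the class.

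Other genes of division gave a background for the members. Over all cells 16 of 24 other kinetochore and centromere genes, 21 of 30 other motors, spindle and cytokinesis genes, 9 of 17 other condensin and cohesin subunits, 5 of 8 entry kinases and phosphatases and 31 of 43 S phase genes were called higher in W, where 20.1% of all genes were. The count was 3 of 19 for other checkpoint and anaphase-promoting genes and 4 of 15 for transcription factors of the G2/M genes, both near that share, and 0 of 12 for cell cycle inhibitors. Of the inhibitors 2 were called lower, against 7.92% of all genes. In cluster 8 none of the genes of these lists was called higher in W except 1 inhibitor. Of the 168 genes 14 were called lower (8.33%), near the 9.58% of all genes, among them Knl1, the kinetochore scaffold, at a ratio of −1.54, and Cdkn1a (p21), at −1.32. Over 28 groups of cluster and library with at least 50 cells, the non-members whose log2(CPM + 1) followed the summed members most closely, among 11716 genes, were Incenp (r = 0.97), the passenger complex scaffold, then Hist1h1b and Cep55 (both 0.96), Pclaf, Efcab11, Cenpu, Shcbp1, Asf1b, Cenpp and Mad2l1. The groups share 2 libraries and their free RNA. Among the members the closest was Tpx2 (0.98) and the farthest Kif23 (0.68).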

How the data were processed

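UMI counts were produced by the authors with Cell Ranger 3.1.0, and clusters with Seurat, both named in the submitters' processing notes. These deposited counts carry no normalization. The labels name the mm9 build and the v3 kit, and the study's methods name mm10 and the V2 kit. The deposited table of cells gives each cell's library, cluster and doublet calls. The authors removed doublets, and 305 UW and 164 W cells that any of the deposited doublet calls still named doublets were left out in an alternative. Cells had 501 to 7570 genes with up to 9.99% of UMIs mitochondrial, and were fewer than the numbers the study gives.

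The members and gene lists were chosen with earlier results of these data known. All 38 members are named, and other genes only as the 3 of a list with the most CPM in cluster 8, as leading genes of a cluster, or as the 10 closest to the summed members. Outside that rule, marker genes at 0 and genes overlapping a member are also named. Other genes of the lists are counted. Counts were summed per cluster and library with pandas 2.3.3, scipy 1.17.1 and numpy 2.4.6 (Python 3.11.15), giving CPM with exact Poisson and log2 ratios with exact conditional binomial 95% intervals. A sum of 0 allows up to 3 counts. PCR and pooling errors are not covered. With 1 library per condition no test was made. Cells were thinned to 5000 UMIs, leaving out 450 shallower cells in UW and 1153 in W. Gene positions and lengths came from GENCODE M21, which lists 19908 of the 20198 symbols. Size factors of DESeq2 1.42.0 (median of ratios) and TMM scaling in edgeR 4.0.16, both under R 4.3.3, a filter at 1000 genes and 5% mitochondrial UMIs, and other depths and limits were alternatives. The ratios and their intervals were tried on simulated counts with Poisson error only. Those counts held no variation between cells, mice or libraries, so the intervals were not tried against it. Cell types were checked with lists of epithelial, stromal and neutrophil markers.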

Additional observations from a re-analysis of the deposited data

Results flagged for a closer look

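The 38 members summed gave a log2 ratio of CPM, W over UW, of −0.53 in cluster 8, while the other 11 clusters with enough cells in both libraries (0 to 11 without it) gave ratios from 0.83 to 1.98. The clusters moved in opposite directions, and with 1 library per condition the difference between them was not tested. By UMIs per cell cluster 8 was also slightly higher in W.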

How the results depend on the processing

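No paired analysis was possible because the labels give no replicate numbers and there is 1 library per condition. The summed level over all cells (1.75) was 1.55 with TMM factors, 1.54 with median-of-ratios size factors, 1.77 under the stricter filter, 1.72 without cells any doublet column names, 1.53 after thinning, 1.72 without Ube2c, 1.77 without clusters 13 to 17 and 1.81 by UMIs per cell. In the epithelial clusters (1.87) these were 1.66, 1.66, 1.90, 1.84, 1.65, 1.85 and, by UMIs per cell, 2.05. In cluster 8 (−0.53) the ratio was −0.48 with TMM and −0.48 with median-of-ratios factors, −0.56 without doublet calls and −0.42 after thinning. It reversed to 0.085 by UMIs per cell, since median depth was higher in W. That alternative was chosen after seeing the data, as were the length classes, the shared barcodes and leaving Smc4 out of the late over early difference outside cluster 8. Elsewhere the member with the most UMIs mattered: without it the ratio was 1.69 in cluster 11 (Smc4), 2.07 in cluster 3 (Smc4), 1.79 in cluster 9 (Cenpa), 1.84 in cluster 5 (Cdca3), 1.12 in cluster 0 (Smc4) and 1.18 in cluster 10 (Smc4). By UMIs per cell these were 2.12, 2.24, 2.69, 2.28, 1.51 and 1.34. Cluster 9 gave 1.77 under the stricter filter, and cluster 0 gave 1.01 with TMM and 1.02 with median-of-ratios factors. The count of members lower in W in cluster 8 went from 3 to 1 after the length class median was taken off. The difference in the share of cells with at least 5 members (14.0 percentage points) was 21.4 at 3 members, 6.71 at 10, 29.9 without thinning and 6.49 at 2000 UMIs. The share of member UMIs in cluster 8 was 65.2% in UW and 61.7% in W after thinning, 69.1% and 69.5% without Ube2c, and 70.7% in W under the stricter filter. The share part of the split was 85.3% after thinning, and the late over early difference 0.34. Of the alternatives tried, 62 left a value within its counting interval or a count within 1.5 times, 50 moved it and 1 reversed it. The causes of the moves were not tested. Depth limits single members outside cluster 8, several of which rest on under 20 UMIs in UW.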

Other observations

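The profile of the 38 members in each group was set beside that of cluster 8 of the same library as a correlation across genes of log2(CPM + 0.1). In UW it was 0.53 in cluster 11, 0.68 in cluster 3 and 0.74 in cluster 9, and in W 0.80, 0.81 and 0.88. It was also 0.86 in the neutrophils of W and 0.75 and 0.89 in cluster 7 of UW and W, droplets in which few member UMIs were found. Genes share length and base composition across groups, and these values carry no test.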
